A study of Homo sapiens with 27 samples.

Results

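The comparison sets WM793B melanoma cells against PC-3 prostate cancer cells, both untreated and kept at 21% oxygen for 72 h. Its members are the 6 control arrays labelled for these lines, 3 biological replicates per line, out of 27 arrays in the study. The other arrays held SK-OV-3 ovarian cancer cells, or cells under chronic or cycling hypoxia; no hypoxic array entered any value given here, and SK-OV-3 control levels are cited beside some results. WM793B was grown in Tu medium with 2% fetal bovine serum, insulin and calcium chloride, PC-3 in RPMI with 10% fetal bovine serum. Cell line and medium therefore cannot be told apart in any difference reported here, and each line stands for 1 tumour, not for melanoma or prostate cancer as such. RNA was read on Human Genome U133 Plus 2.0 arrays, whose probe sets each combine several short probes, in some cases against more than 1 gene.

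Melanocytes arise from the neural crest, and melanomas usually keep some of the transcription factors of that origin (SOX10, PAX3, MITF), while the pigment enzymes and melanosome proteins that these factors drive are kept or lost to different degrees. PC-3 was derived from a bone metastasis of a prostate adenocarcinoma and is known as an epithelial line that grows without androgen. Epithelial cells are held together by E-cadherin junctions, tight junction claudins and keratin filaments. The comparison asks which of these programmes, and which others, separate the lines.

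Values are log2 signals, so that a difference of 1 is a 2-fold change, and differences are given as WM793B minus PC-3. A value of 5 was taken as the noise level. Between 66.0% and 67.0% of all values on each of the 6 arrays lay at or below it, and the lowest value on each array was 2.28. The precision is limited by the 3 arrays per line. Replicate arrays correlated across probe sets at r of 0.9957 to 0.9975 (WM793B) and 0.9972 to 0.9975 (PC-3), arrays of different lines at 0.903 to 0.906. The median SD between replicates was 0.13 in WM793B and 0.09 in PC-3. The 9 blood cell markers (such as PTPRC, CD3E and HBB) stayed at or below 2.70 on all 6 arrays.

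The lines differed in a large share of their transcripts, about equally in both directions. Of 19911 probe sets above the noise level on at least 3 of the 6 arrays, 4058 (20.4%) were higher and 4004 (20.1%) lower in WM793B, with an adjusted p under 0.05 (limma, Benjamini-Hochberg over all 19911) and at least a 2-fold change. Reading each gene from its brightest tested probe set with 1 gene symbol, 2040 of 10145 genes (20.1%) were higher and 2058 (20.3%) lower in WM793B, and the median difference over all genes was -0.01. A gene at or below the noise level on all 3 arrays of a line is called silent there. Such a gene passes the filter only through the other line and had to differ, so genes above the noise level on all 6 arrays were counted apart. Of those 8222 genes, 1221 (14.9%) were higher and 1267 (15.4%) lower in WM793B. Among them 39 genes were at least 16-fold higher and 25 at least 16-fold lower. A further 765 genes were above the noise level on the 3 WM793B arrays and at or below it on the 3 PC-3 arrays, and 719 genes showed the opposite pattern.

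**Figure D1:**
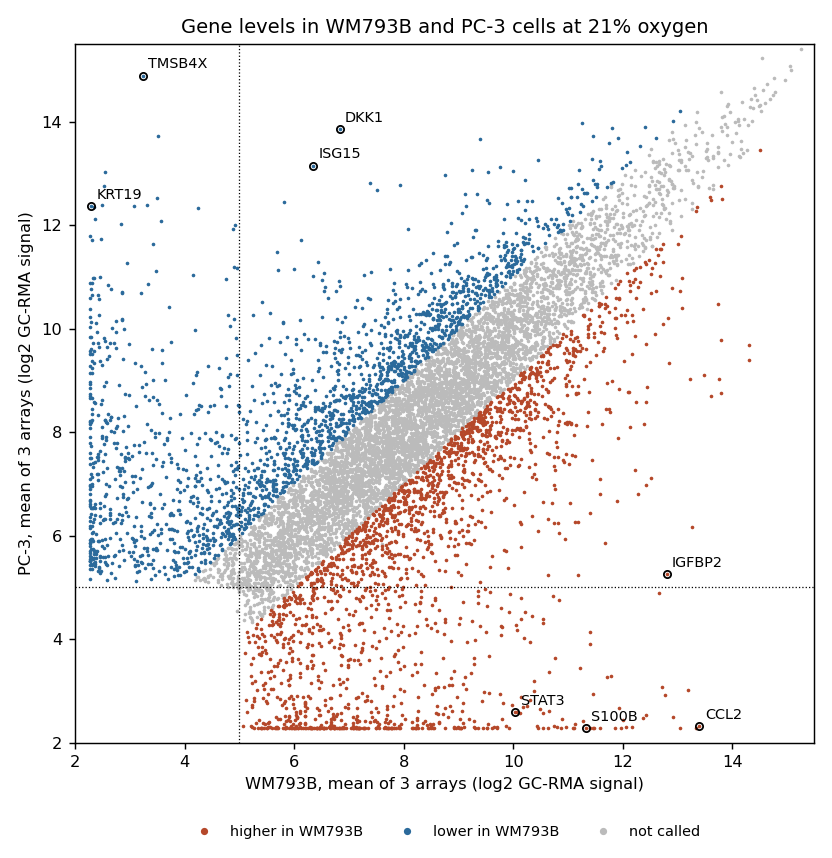
Mean log2 signal of each tested gene in WM793B (x axis) and PC-3 (y axis), 3 arrays each, with the noise level of 5 as dotted lines; red points are called higher and blue points lower in WM793B, grey points are not called. CCL2 and S100B lie on the floor of PC-3, KRT19 and TMSB4X near the floor of WM793B, while IGFBP2, DKK1 and ISG15 were measured in both lines.

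Gene lists were read against those shares. The epithelial genes were all lower in WM793B and the interferon-stimulated genes mostly lower (18 of 31), while most of the mesenchymal, melanocyte, neural crest, cytokine, antigen presentation and p53 target genes were higher. Among short lists, all 5 tested cancer-testis antigens and all 4 HOXD genes were higher. All 4 tested ligands of the EGF receptor family were lower. Only 1 of these antigens, 0 of these HOXD genes and 1 of these ligands were above the noise level in both lines. A gene silent in 1 line had to differ, so these short lists cannot be weighed against the shares. The longer lists hold such genes too. Only 6 of 35 epithelial, 6 of 14 melanocyte and 7 of 21 cytokine genes were above the noise level in both lines. Members measured in both lines compare with the shares of all such genes, 14.9% higher and 15.4% lower. Ribosomal protein genes (0 of 21 called) and DNA replication genes (2 higher and 1 lower of 28) had few or no calls. The ribosomal protein genes missed the call on size, since all differed by at most 0.83 on the log2 scale. In limma, 20 of the 21 had an unadjusted p under 0.05, of which 16 were higher in WM793B. The same number had an adjusted p under 0.05, as did 15808 of all 19911 probe sets tested.

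**Figure D2:**
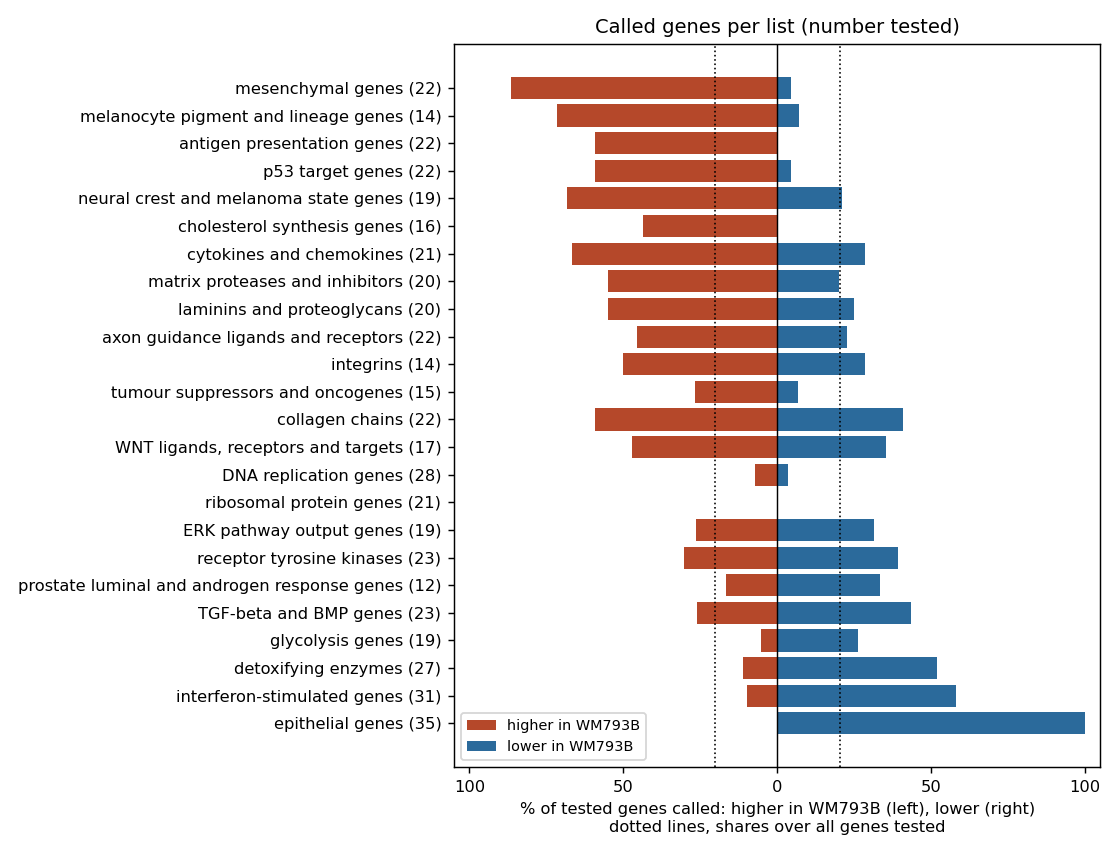
Percentage of the tested genes of each list called higher (red, to the left) or lower (blue, to the right) in WM793B, with the number tested in brackets; dotted lines mark the shares over all genes, 20.1% and 20.3%. All 35 tested epithelial genes were lower in WM793B, of which 6 were above the noise level in both lines. Among ribosomal protein genes, 0 of 21 reached the 2-fold change that a call required.

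WM793B carried SOX10, PAX3, EDNRB and other genes of the melanocyte lineage, whereas the pigment genes and the receptors KIT (2.29 in WM793B and 2.29 in PC-3), MC1R (3.76 in WM793B and 3.28 in PC-3) and GPR143 (2.35 in WM793B and 2.28 in PC-3) lay below the noise level in both lines. Of 14 tested genes of the melanocyte list, 10 were higher in WM793B, 1 was lower and 3 were not called (median difference 4.89); 6 of the 14 were above the noise level in both lines, of which 2 were higher and 1 lower. SOX10, the transcription factor that specifies melanocytes and glia, read 10.48, 10.49 and 10.31 on the WM793B arrays and 2.34, 2.34 and 2.28 on the PC-3 arrays. S100B, a calcium-binding protein used as a melanoma marker, read 11.53, 11.24 and 11.20 in WM793B and 2.28 on all 3 PC-3 arrays. They were at least 43-fold (SOX10, limma, adjusted p = 4.61e-10) and at least 80.1-fold (S100B, adjusted p = 6.34e-10) higher in WM793B. Where a line lies at or below the noise level on all 3 arrays, as here, the fold is a lower bound, taken from the mean of the other line to the noise level. PAX3, a neural crest transcription factor, was at least 9.66-fold higher, EDNRB, the endothelin receptor of migrating melanoblasts, at least 55.3-fold, and LEF1, a WNT-responsive factor, at least 16.9-fold. MITF, the regulator of pigment genes, read 8.51, 8.41 and 8.21 in WM793B and 7.61, 7.86 and 7.51 in PC-3. Its difference of 0.71 ± 0.12 (SE, adjusted p = 0.00102) was larger than the replicate spread but under 2-fold, and the SK-OV-3 mean was 9.26 at the same probe set, so that the level of WM793B lay between those of the other lines. Which isoform of MITF the probe set read was not tested.

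The pigment genes themselves stayed below the noise level. TYR, the rate-limiting enzyme of melanin synthesis, did not exceed 2.51 on any of the 6 arrays, TYRP1 did not exceed 2.94, and PMEL and MLANA, the fibril protein and the antigen of melanosomes, stayed at the floor of 2.28 in both lines. In all, 14 genes of the list did not pass the filter, with a highest single value of 5.93, in S100A1. MLPH, which links melanosomes to the actin motor and is also found in secretory epithelia, went the other way, with 6.59, 6.45 and 6.80 in WM793B against 10.59, 10.55 and 10.66 in PC-3 (-3.99 ± 0.10, SE, adjusted p = 3.12e-08).

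**Figure D3:**
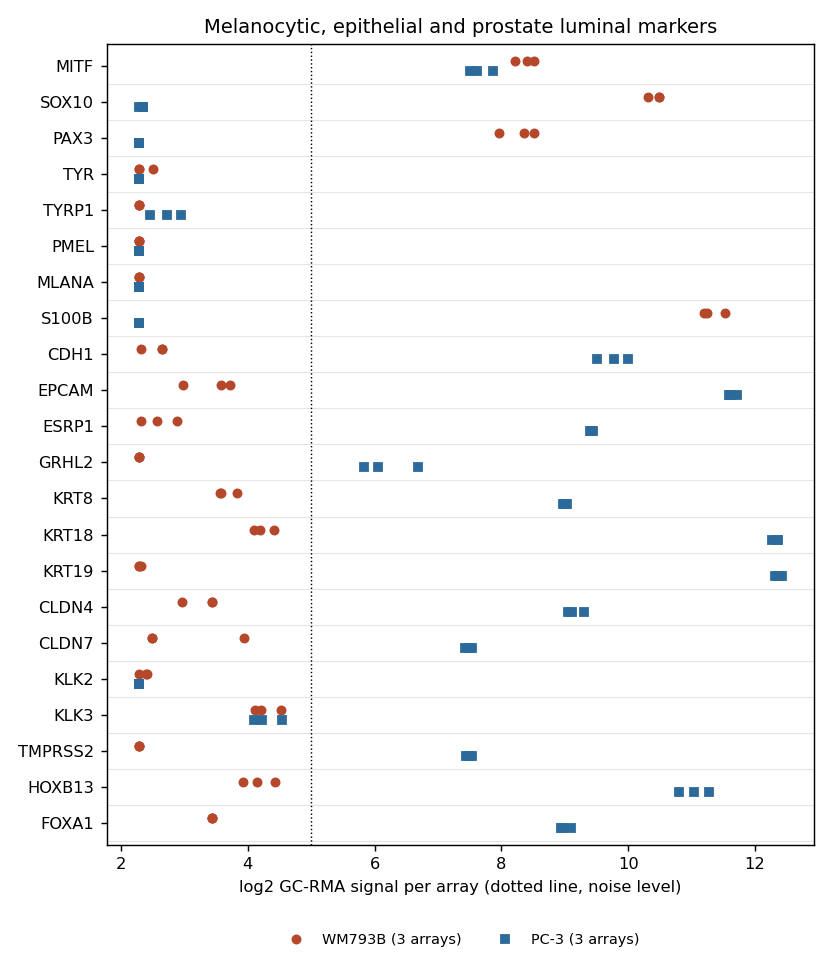
Log2 signal on each array for melanocytic, epithelial and prostate luminal markers, with WM793B as circles above PC-3 as squares for each gene and the noise level of 5 as a dotted line. SOX10, PAX3 and S100B lie above the line only in WM793B, all 9 epithelial markers only in PC-3, and TYR, TYRP1, PMEL, MLANA, KLK2 and KLK3 in neither.

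GPNMB, a melanosome and lysosome glycoprotein, was high in WM793B: it read 12.14, 12.15 and 11.85 in WM793B against 2.28, 2.28 and 2.39 in PC-3 (at least 132-fold higher, adjusted p = 5.65e-10). The promoters of GPNMB and TYR are shown because both hold the M-box, the element that MITF is known to bind, in a pair of genes whose levels were opposite in WM793B. The windows run from 250 bases before to 50 bases after the RefSeq start (GRCh38.p14), with matches to TCATGTG or its reverse complement CACATGA in capitals. The GPNMB window, chr7:23246525-23246824 on the plus strand, holds 2 matches, at positions 128 and 189, and that of TYR, chr11:89177625-89177924 on the plus strand, holds 1, at position 146.
GPNMB: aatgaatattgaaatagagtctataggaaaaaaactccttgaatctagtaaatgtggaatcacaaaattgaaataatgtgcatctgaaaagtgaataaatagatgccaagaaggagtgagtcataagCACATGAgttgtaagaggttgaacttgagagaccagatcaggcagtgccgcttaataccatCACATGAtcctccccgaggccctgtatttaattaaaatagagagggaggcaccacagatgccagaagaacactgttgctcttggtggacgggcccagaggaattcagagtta
TYR: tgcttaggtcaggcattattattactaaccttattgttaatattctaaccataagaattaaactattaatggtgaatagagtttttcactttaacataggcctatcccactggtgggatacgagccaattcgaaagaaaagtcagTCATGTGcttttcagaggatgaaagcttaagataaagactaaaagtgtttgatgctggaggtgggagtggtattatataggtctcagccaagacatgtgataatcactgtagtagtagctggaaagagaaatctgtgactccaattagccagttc
Of all 35116 promoter windows, 2.92% hold the element, against 7 of 36 windows (19.4%) of the melanocyte list, expressed or not. A match describes the sequence and does not show that a factor binds it.

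Genes of the neural crest and of the less differentiated melanoma state were higher in WM793B in 13 of 19 tested cases and lower in 4 (9 higher and 3 lower among 14 genes above the noise level in both lines). SOX5 and SOX6, partners of SOX factors in crest and cartilage cells, read 8.89, 9.19 and 8.96 (SOX5) and 8.30, 8.31 and 7.86 (SOX6) in WM793B and 2.28 on every PC-3 array. L1CAM, a neural adhesion molecule, was at least 33.4-fold higher, and ERBB3, the neuregulin receptor, was 3.09 ± 0.08 higher (SE, adjusted p = 3.72e-08). The 4 lower genes were SOX9, NRP1, FOSL1 and ALCAM. SOX9, which acts in the crest but also in prostate epithelium, read 2.89, 3.20 and 2.75 in WM793B against 11.30, 11.29 and 11.20 in PC-3, at least 76.8-fold lower. NRP1, a co-receptor for semaphorins and VEGF, averaged 7.52 ± 0.02 in WM793B and 12.67 ± 0.02 in PC-3 (SD, n = 3 each), whereas its paralogue NRP2 averaged 9.28 ± 0.13 in WM793B and 3.63 ± 0.37 in PC-3.

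Epithelial genes moved in 1 direction. All 35 tested genes of junctions, keratins and epithelial transcription factors were lower in WM793B (median difference -4.26); 6 of them were above the noise level in both lines, and all 6 were lower, where 15.4% of all such genes were. A further 8 genes of the list did not pass the filter, with no value over 5.19. CDH1, which encodes E-cadherin, read 2.64, 2.65 and 2.32 in WM793B against 9.50, 10.00 and 9.77 in PC-3. EPCAM, an epithelial adhesion molecule, averaged 3.43 ± 0.40 in WM793B and 11.64 ± 0.07 in PC-3. KRT19, a keratin of simple epithelia, lay at 2.31, 2.28 and 2.28 in WM793B and at 12.32, 12.36 and 12.43 in PC-3. The lower bounds of these differences were 27.1-fold (CDH1), 99.5-fold (EPCAM) and 166-fold (KRT19). ESRP1, the epithelial splicing regulator, and the tight junction proteins CLDN4 and CLDN7 were at least 21.3-fold (ESRP1), 17.8-fold (CLDN4) and 5.59-fold (CLDN7) lower. Desmoplakin (DSP, 7.65 ± 0.04 in WM793B and 9.86 ± 0.10 in PC-3) and occludin (OCLN, 6.78 ± 0.17 in WM793B and 9.18 ± 0.03 in PC-3) were lower but remained above the noise level in WM793B.

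The CLDN7 promoter is shown because ZEB and SNAIL repressors, described next, are known to act through the E-box CACCTG (reverse complement CAGGTG). The window of 1 of its 2 RefSeq starts, chr17:7262429-7262728 on the minus strand (GRCh38.p14), holds 5 copies, in capitals, at positions 77, 116, 231, 242 and 256.
CLDN7: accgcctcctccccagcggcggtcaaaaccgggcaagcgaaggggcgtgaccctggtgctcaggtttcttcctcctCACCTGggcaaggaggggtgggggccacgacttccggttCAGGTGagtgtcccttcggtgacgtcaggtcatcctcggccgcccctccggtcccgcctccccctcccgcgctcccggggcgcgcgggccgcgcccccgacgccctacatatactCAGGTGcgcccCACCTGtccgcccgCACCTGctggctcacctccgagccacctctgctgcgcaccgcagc
Of the 26 windows found for 20 of the 35 lower epithelial genes, 14 (53.8%) hold the E-box, against 20.6% of all windows. A match does not show that a factor binds it in either line. The part of ZEB and SNAIL factors in the epithelial differences was not tested. CLDN7 itself read 2.49, 3.94 and 2.49 in WM793B against 7.42, 7.49 and 7.54 in PC-3.

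Mesenchymal genes were higher in WM793B in 19 of 22 tested cases and lower in 1 (11 higher and 0 lower among 13 genes measured in both lines). The E-box repressors ZEB1, ZEB2 and SNAI1 were among them. ZEB2 averaged 7.70 ± 0.29 in WM793B and 2.29 ± 0.01 in PC-3, SNAI1 5.85 ± 0.13 in WM793B and 2.42 ± 0.10 in PC-3, and ZEB1 9.45 ± 0.04 in WM793B and 7.67 ± 0.11 in PC-3. ZEB1 was thus expressed in PC-3 as well, at a level 1.78 ± 0.08 lower (SE, adjusted p = 6.91e-07). THBS2, a matrix thrombospondin, read 13.12, 13.45 and 13.42 in WM793B against 2.30, 2.29 and 2.29 in PC-3, and TGFBI and MMP2 showed the same pattern. Vimentin (VIM), the standard mesenchymal filament, was abundant in both lines, with 14.13 ± 0.03 in WM793B and 13.33 ± 0.04 in PC-3, and was not called. N-cadherin (CDH2) was higher by 1.07 ± 0.12 only. The exception was CDH11, the osteoblast cadherin, with 2.38, 2.38 and 2.28 in WM793B against 12.45, 12.21 and 12.39 in PC-3. It was at least 163-fold lower, and all 4 of its tested probe sets were lower.

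Fibroblast markers were read beside these genes. Of 10 markers, 6 were tested, of which 5 (FAP, LUM, COL3A1, PDGFRA and THY1) were higher in WM793B and COL1A1 was lower, with 5.65 ± 0.19 in WM793B and 8.95 ± 0.08 in PC-3. Among the 3 markers measured in both lines, 2 were higher and 1 lower. The summed signal of the 10 markers ran from 11.82 to 12.14 (log2) over the WM793B arrays and from 9.55 to 9.61 over the PC-3 arrays. COL1A2, a defining fibroblast collagen, stayed at 2.38 in both lines, and DCN exceeded the noise level only on 1 array, at 5.09 in WM793B replicate 3. The part of fibroblast genes in the mesenchymal difference was not tested.

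Of 12 tested prostate luminal and androgen response genes, 4 were lower in WM793B, 2 were higher and 6 were not called, and 7 were above the noise level in both lines. The 4 lower ones were at or below the noise level in WM793B. HOXB13, the homeobox factor of prostate and hindgut, read 4.43, 3.92 and 4.14 in WM793B against 10.80, 11.28 and 11.03 in PC-3, and the SK-OV-3 mean was 4.05. FOXA1, TMPRSS2 and SPDEF, a pioneer factor, a membrane protease and an ETS factor of luminal cells, were at or below 3.43 on all WM793B arrays. In PC-3 they ran from 8.94 to 9.10 (FOXA1), 7.44 to 7.54 (TMPRSS2) and 7.57 to 7.74 (SPDEF). The androgen-driven secretory genes KLK2 and KLK3 lay below the noise level in both lines. KLK2 did not exceed 2.41, and KLK3, which encodes prostate-specific antigen, did not exceed 4.54. The genes STEAP1 (8.76 in WM793B and 9.62 in PC-3), STEAP2, SLC45A3, NDRG1, FKBP5 and GATA2 were present in both lines and not called. The higher ones were TRPM8, a cold-sensing channel (7.31, 7.30 and 6.97 in WM793B, 2.28 on all PC-3 arrays), and PMEPA1, which restrains TGF-beta signalling (12.52 ± 0.11 in WM793B and 7.12 ± 0.36 in PC-3). Of 8 tested basal epithelial genes, SFN, ITGB4, KRT15 and LAMB3 were lower in WM793B. Among the 4 basal genes measured in both lines, 0 were called. The basal keratins KRT5 and KRT14 lay at the floor in both lines. Of 6 tested neuroendocrine genes, 4 were higher in WM793B and 2 lower. Only 1 of the 6 was measured in both lines, and it was lower. NCAM1, POU3F2, SNAP25 and SCG2 were above the noise level only in WM793B, and FOXA2, a factor of endoderm and of neuroendocrine prostate tumours, only in PC-3. ENO2, present in both lines, was lower in WM793B, and CHGA, CHGB, SYP, INSM1, SCG3, SCG5 and UCHL1 did not exceed 3.52 in either line.

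Position along the body axis is recorded in HOX genes, and the lines differed there too. All 4 tested HOXD genes (HOXD1, HOXD4, HOXD8 and HOXD13) were above the noise level only in WM793B, with HOXD13 at 6.83 ± 0.17 in WM793B and 3.14 ± 0.46 in PC-3. In the HOXB cluster, HOXB3, HOXB6, HOXB7 and HOXB9 were higher and HOXB13 lower in WM793B. HOXB7 averaged 8.73 ± 0.16 in WM793B and 3.08 ± 0.36 in PC-3. Another 4 HOXB and 4 HOXD genes did not pass the filter. The 3 tested HOXC genes were mixed, with 1 higher, 1 (HOXC6) lower and 1 not called. Only 1 of 11 HOXA genes had a probe set with 1 gene symbol, so that cluster was hardly read.

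Among genes measured in both lines, the 10 furthest above PC-3 were IGFBP2, COL8A1, SERTAD4, RELL1, BAMBI, FAM20C, TMEM47, PMEPA1, EFEMP1 and IGFBP3. IGFBP2, which binds insulin-like growth factors, read 12.76, 12.64 and 13.00 in WM793B and 5.23, 5.43 and 5.12 in PC-3, a difference of 7.54 ± 0.12 (SE, adjusted p = 2.92e-09). IGFBP3 and BAMBI, a decoy receptor for TGF-beta ligands, were 5.03 ± 0.16 and 5.47 ± 0.17 higher. The medium of WM793B contained insulin and that of PC-3 did not, and the part of the media in these differences was not tested.

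In the other direction the 10 genes were DKK1, ISG15, MET, IFITM1, PPARG, ZNF248, FST, FAM131B-AS2, NRP1 and H1-2. DKK1, a secreted WNT inhibitor, read 6.64, 6.61 and 7.24 in WM793B and 13.93, 13.75 and 13.88 in PC-3 (-7.03 ± 0.17, SE, adjusted p = 2.13e-08). MET, the hepatocyte growth factor receptor, averaged 5.81 ± 0.31 in WM793B and 12.45 ± 0.08 in PC-3. PPARG, a nuclear receptor of lipid metabolism, averaged 6.12 ± 0.05 in WM793B and 11.72 ± 0.07 in PC-3. FST, which traps activins, averaged 7.39 ± 0.02 in WM793B and 12.81 ± 0.02 in PC-3.

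The brightest genes of WM793B that were silent in PC-3 were CCL2, THBS2, IGFBP7, TIMP3, DKK3, TGFBI, SFRP1, MMP2, IL1A, TAC1, GPNMB and KLF9, most of which encode secreted proteins. CCL2, the monocyte chemoattractant, read 13.52, 13.52 and 13.18 in WM793B and 2.32 on all PC-3 arrays, at least 339-fold higher (adjusted p = 4.08e-10). Their lower bounds ran from 129-fold (KLF9) to 339-fold. Several were present in SK-OV-3 as well, with means of 12.04 for IGFBP7, 10.18 for DKK3 and 10.03 for IL1A.

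The brightest genes of PC-3 that were silent in WM793B were TMSB4X, MAL2, TFF1, AGR2, HAS3, CALB1, HPGD, KRT19, NEFL, CDH11, KRT18 and MGST1, with bounds from 140-fold (MGST1) to 946-fold (TMSB4X) lower in WM793B. TFF1 and AGR2, a trefoil peptide and a protein disulfide isomerase of mucus-secreting cells, averaged 2.55 ± 0.19 and 2.53 ± 0.21 in WM793B against 13.02 ± 0.22 and 12.76 ± 0.11 in PC-3. HAS3, a hyaluronan synthase, averaged 3.49 ± 0.00 in WM793B and 12.53 ± 0.06 in PC-3. TMSB4X, which binds actin monomers and is expressed in most cells, read 2.82, 3.38 and 3.53 in WM793B against 14.93, 14.91 and 14.81 in PC-3, and the SK-OV-3 mean was 14.85. It was read by 1 probe set only, and the gene has near-identical copies in the genome, so that its value is uncertain. SK-OV-3 also expressed CALB1 (mean 12.35), MAL2 (11.79), KRT18 (11.36), KRT19 (10.70) and MGST1 (10.27).

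Both lines expressed extracellular matrix, but of different composition. All 22 tested collagen chains were called, 13 higher and 9 lower in WM793B (7 higher and 5 lower among 12 measured in both lines). COL15A1, a basement membrane zone collagen, read 10.47, 10.52 and 10.94 in WM793B and 2.28 on all PC-3 arrays. COL6A3, a chain of microfibrillar collagen, showed the reverse, with 2.28, 2.28 and 2.29 in WM793B against 9.29, 9.64 and 9.59 in PC-3, and its partners COL6A1 and COL6A2 were lower as well. Of 20 tested laminins and proteoglycans, 11 were higher and 5 lower (6 higher and 3 lower among 13 measured in both lines). LAMC1, the common laminin gamma chain, was 3.82 ± 0.08 higher, and SDC1, the syndecan of epithelia, was 4.24 lower, with 6.57 ± 0.23 in WM793B and 10.81 ± 0.13 in PC-3.

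Integrins, the receptors for this matrix, differed in both directions. Of 14 tested, 7 were higher in WM793B, namely ITGA4, ITGB3, ITGA9, ITGB8, ITGAV, ITGA5 and ITGB5. ITGA4, a receptor for fibronectin and VCAM1, read 10.97, 10.96 and 10.74 in WM793B and 2.28, 2.54 and 2.54 in PC-3. ITGB3, the vitronectin receptor chain known from invasive melanoma, averaged 9.43 ± 0.24 in WM793B and 2.80 ± 0.84 in PC-3. The 4 lower ones were ITGB4, ITGB2, ITGA3 and ITGA2. Among the 9 integrins measured in both lines, 4 were higher and 2 lower, where 14.9% of all such genes were higher and 15.4% lower. ITGB4, the hemidesmosome integrin, averaged 3.23 ± 0.78 in WM793B and 8.87 ± 0.12 in PC-3, whereas ITGB1, shared by many receptors, averaged 13.32 in WM793B and 13.74 in PC-3 and was not called.

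Matrix proteases also differed in both directions. Of 20 tested proteases and inhibitors, 11 were higher in WM793B and 4 lower (6 higher and 1 lower among 12 measured in both lines). MMP1, the interstitial collagenase, read 14.34, 14.27 and 14.29 in WM793B and 9.74, 9.62 and 9.71 in PC-3 (4.61 ± 0.07, SE, adjusted p = 2.69e-09), and the collagenase MMP8 was at least 22.9-fold higher. PLAU, the urokinase that activates plasmin, read 2.49, 2.49 and 2.42 in WM793B against 11.64, 11.73 and 11.82 in PC-3, and SERPINB5, the epithelial serpin maspin, lay at 2.28 on all WM793B arrays and averaged 10.59 ± 0.23 in PC-3.

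Growth factor receptors differed in both directions, also within families. Of 23 tested receptor tyrosine kinases, 7 were higher in WM793B (DDR2, FLT1, PDGFRA, ERBB3, EPHA4, TYRO3 and IGF1R) and 9 lower, MET and MST1R, receptors of the scatter factors, at the head. Among the 14 kinases measured in both lines, 4 were higher and 3 lower. EGFR itself was 1.30 lower, with 8.13 ± 0.04 in WM793B and 9.43 ± 0.19 in PC-3. All 4 tested ligands of the EGF receptor family (TGFA, HBEGF, BTC and NRG2) were lower in WM793B. HBEGF, a membrane-anchored ligand, read 3.95, 4.00 and 4.16 in WM793B and 7.21, 7.46 and 7.14 in PC-3, and of the 4 only TGFA was above the noise level in both lines. Genes that respond to the ERK kinases did not move as a group: of 19 tested, 5 were higher, 6 lower and 8 not called. Over all tested genes 20.1% were higher and 20.3% lower. Among the ERK-responsive genes SPRY2, a feedback inhibitor, was 2.05 ± 0.10 higher. DUSP5 and DUSP6, ERK phosphatases, were lower by 3.99 ± 0.15 and 1.04 ± 0.16. MYC averaged 8.16 ± 0.31 in WM793B and 10.79 ± 0.07 in PC-3.

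Of 17 tested genes of WNT signalling, 8 were higher and 6 lower (4 higher and 4 lower among 11 measured in both lines). The lines differed in which secreted inhibitor they expressed: DKK3 and SFRP1 averaged 12.91 ± 0.22 and 12.72 ± 0.04 in WM793B against 2.50 ± 0.04 and 3.08 ± 0.10 in PC-3, whereas DKK1 was high in PC-3. Of 23 tested TGF-beta and BMP genes, 6 were higher and 10 lower (1 higher and 5 lower among 13 measured in both lines). The activin chain INHBB, with 2.53, 2.53 and 2.28 in WM793B against 11.07, 10.82 and 11.08 in PC-3, and the BMP antagonist NOG and receptor BMPR1B were above the noise level only in PC-3. BMP2 and, at its brightest probe set, ID4 were above it only in WM793B; another ID4 probe set read 5.38, 4.09 and 3.69 in PC-3. Axon guidance genes were higher in 10 and lower in 5 of 22 tested cases, with SEMA3F and NTN4 among the lower ones. Among the 16 axon guidance genes measured in both lines, 7 were higher and 4 lower.

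Inflammatory chemokines were abundant in WM793B. Of 21 tested cytokines and chemokines, 14 were higher and 6 lower (6 higher and 0 lower among 7 genes measured in both lines). CXCL8, the neutrophil chemoattractant, read 14.36, 14.25 and 14.29 in WM793B and 9.32, 9.19 and 9.66 in PC-3, a difference of 4.91 ± 0.13 (SE, adjusted p = 2.93e-08). CXCL1 differed by 4.92 ± 0.07, and IL1A, an alarmin of the interleukin-1 family, averaged 12.37 ± 0.12 in WM793B and 2.48 ± 0.07 in PC-3. IL6 read 9.18, 9.27 and 9.60 in WM793B and 5.06, 4.21 and 5.53 in PC-3. PC-3 in turn expressed IL18, IL33, CXCL5 and CXCL6, of which CXCL6 lay at 2.28 on all WM793B arrays and averaged 9.15 ± 0.22 in PC-3.

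Interferon-stimulated genes, which cells switch on after sensing interferon or viral nucleic acids, were lower in WM793B in 18 of 31 tested cases and higher in 3 (10 lower and 3 higher among 23 genes measured in both lines). ISG15, a ubiquitin-like modifier, read 6.73, 6.42 and 5.86 in WM793B against 13.14, 13.17 and 13.14 in PC-3 (-6.81 ± 0.20, SE, adjusted p = 5.6e-08). IFITM1, which blocks viral entry, averaged 5.69 ± 0.30 in WM793B and 11.48 ± 0.04 in PC-3, and MX1, an antiviral GTPase, 6.76 ± 0.34 in WM793B and 10.73 ± 0.04 in PC-3. IFI27 and OAS2, an RNA sensor, were above the noise level only in PC-3. IRF9, a transcription factor of this response, was lower by 2.29 ± 0.15, and IRF7, another, was at least 10.2-fold lower. The 3 higher genes were GBP1, IFI16 and PSMB9, the first and the last of which are known mainly as targets of interferon gamma.

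The ISG15 promoter is printed because it carries the interferon-stimulated response element, searched as a pair of GAAA tetranucleotides with 2 bases between them, on both strands. The window, chr1:1013247-1013546 on the plus strand (GRCh38.p14), holds 2 overlapping matches, at positions 138 and 144, in capitals.
ISG15: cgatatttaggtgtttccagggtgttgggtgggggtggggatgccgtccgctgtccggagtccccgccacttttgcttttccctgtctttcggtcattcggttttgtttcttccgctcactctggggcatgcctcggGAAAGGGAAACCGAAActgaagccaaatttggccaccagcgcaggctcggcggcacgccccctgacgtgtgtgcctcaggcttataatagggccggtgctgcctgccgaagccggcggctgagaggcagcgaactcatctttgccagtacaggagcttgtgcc
Of the 19 windows found for 13 of the 18 lower genes, 15 (78.9%) hold such a match, against 3.57% of all windows. These genes are known targets of the element, and the match says nothing of its use in either line.

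Antigen presentation showed the opposite direction. Of 22 tested genes, 13 were higher in WM793B and 0 lower (5 of 14 measured in both lines, where 14.9% of all such genes were higher). Class II molecules, which present peptides to helper T cells, and their helpers made up 8 of the 13: HLA-DRA read 11.23, 11.31 and 10.79 in WM793B and 2.28 on every PC-3 array, HLA-DPA1 12.00, 11.94 and 11.64 against the same floor, and their chaperone CD74 averaged 11.79 ± 0.29 in WM793B and 3.28 ± 0.12 in PC-3. The lower bounds were 69.1-fold (HLA-DRA), 116-fold (HLA-DPA1) and 111-fold (CD74). HLA-DMB, which helps to load these molecules, was near the noise level in PC-3, with 7.98 in WM793B and 5.01 in PC-3. Not every listed gene of the class II pathway was present in WM793B. HLA-DQA1 (2.58 in WM793B and 2.28 in PC-3) and CIITA (2.81 in WM793B and 2.31 in PC-3) lay below the noise level in both lines. Of the class I pathway, HLA-B was 1.71 ± 0.10 higher, whereas B2M (13.82 ± 0.04 in WM793B and 13.81 ± 0.02 in PC-3) and the transporter TAP1 (8.47 ± 0.06 in WM793B and 8.48 ± 0.09 in PC-3) were not called. HLA genes share sequence, so that their probe sets may read each other.

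Targets of p53, the stress-activated tumour suppressor, were higher in WM793B in 13 of 22 tested cases and lower in 1, GDF15 (11 higher and 1 lower among 20 measured in both lines, median difference of the 22 genes 1.21). CDKN1A, the p21 inhibitor of the cell cycle, read 9.69, 9.74 and 10.15 in WM793B and 6.68, 6.82 and 6.67 in PC-3 (3.13 ± 0.13, SE, adjusted p = 3.76e-07). ZMAT3, an RNA-binding protein, was 3.77 ± 0.08 higher, FAS, a death receptor, 2.95 ± 0.16, BAX, which permeabilises mitochondria, 1.97 ± 0.08, and MDM2, which degrades p53, 1.85 ± 0.12. GDF15 read 9.60, 9.49 and 10.62 in WM793B and 11.22, 10.87 and 11.19 in PC-3.

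Among tumour suppressors and oncogenes, CTNNA1 stood apart. It encodes alpha-catenin, which ties cadherins to actin, and it read 11.51, 11.43 and 11.26 in WM793B and 2.28 on all PC-3 arrays, at least 84.6-fold higher (adjusted p = 4.02e-10). All 4 of its tested probe sets were higher in WM793B, with PC-3 means of 2.28, 2.28, 2.43 and 2.88, and the SK-OV-3 mean was 12.39. CDKN2B, a CDK inhibitor, was lower in WM793B (5.42 ± 0.36, against 8.57 ± 0.08 in PC-3), and RB1 was not called. CDKN2A was not called at its brightest probe set (0.59 ± 0.10 higher), while another of its probe sets was 1.57 ± 0.08 higher (9.49 in WM793B and 7.92 in PC-3, adjusted p = 9.17e-07).

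Metabolic lists differed in how many genes were called. Of 16 tested genes of cholesterol synthesis, 7 were higher in WM793B and 0 lower (6 higher and 0 lower among 15 measured in both lines). HMGCS1, which makes HMG-CoA, read 10.40, 10.47 and 10.32 in WM793B and 7.63, 7.77 and 7.82 in PC-3. The serum content of the media, 2% for WM793B and 10% for PC-3, moved with this list, and its part was not tested. Of 19 glycolysis genes, 5 were lower and 1 higher, the neuronal-type glucose transporter SLC2A3. Over all tested genes 20.3% were lower and 20.1% higher. Of the 17 glycolysis genes measured in both lines, 4 were lower and 0 higher, where 15.4% of all such genes were lower. ALDOC was above the noise level only in PC-3. Of 27 tested detoxifying enzymes, 14 were lower and 3 higher (8 lower and 3 higher among 21 measured in both lines). MGST1, a membrane glutathione transferase, averaged 2.36 ± 0.09 in WM793B and 12.12 ± 0.02 in PC-3. GSTT1, another glutathione transferase, averaged 2.57 ± 0.11 in WM793B and 7.91 ± 0.08 in PC-3, while the quinone reductase NQO1 was 2.70 ± 0.11 higher.

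Cancer-testis antigens, normally limited to the germ line, were present in WM793B. All 5 tested (MAGEA6, MAGEA10, MAGEA12, TEX15 and PRAME) were higher, and 15 more of the list did not pass the filter. MAGEA12 read 10.42, 10.44 and 10.49 in WM793B and 2.28 on all PC-3 arrays. PRAME, a melanoma antigen, was measured in both lines, with 10.90 ± 0.12 in WM793B and 7.46 ± 0.16 in PC-3. MAGEA genes are near-identical, so that which member was read is uncertain.

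Genes silent in 1 line were in places neighbours on a chromosome. Along the order of tested genes in the RefSeq annotation, 6 runs of at least 4 consecutive genes were above the noise level on all arrays of 1 line and at or below it on all arrays of the other. The longest, on chromosome 17, comprised 8 genes present in WM793B and silent in PC-3: KAT2A, RAB5C, GHDC, STAT5B, STAT3, CAVIN1, ATP6V0A1 and NAGLU. STAT3, the transcription factor of interleukin-6 signalling, read 10.11, 10.07 and 9.94 in WM793B and 2.59 on all PC-3 arrays, at least 32.9-fold higher (adjusted p = 5.38e-10). RAB5C, an endosomal GTPase, averaged 9.13 ± 0.11 in WM793B and 3.04 ± 0.40 in PC-3, and CAVIN1, a coat protein of caveolae, 9.10 ± 0.05 in WM793B and 2.31 ± 0.05 in PC-3. The bounds of the other 5 genes ran from 1.55-fold (GHDC) to 4.64-fold (KAT2A). In SK-OV-3 cells STAT3 averaged 10.83, RAB5C 10.20 and CAVIN1 8.96. Expression was present in PC-3 on either side of the run: NKIRAS2 was 0.97 ± 0.08 higher in WM793B, under 2-fold, DNAJC7 and HSD17B1 did not pass the test (adjusted p = 0.107 and 0.0771), and COASY was 0.47 ± 0.16 lower (adjusted p = 0.026).

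**Figure D4:**
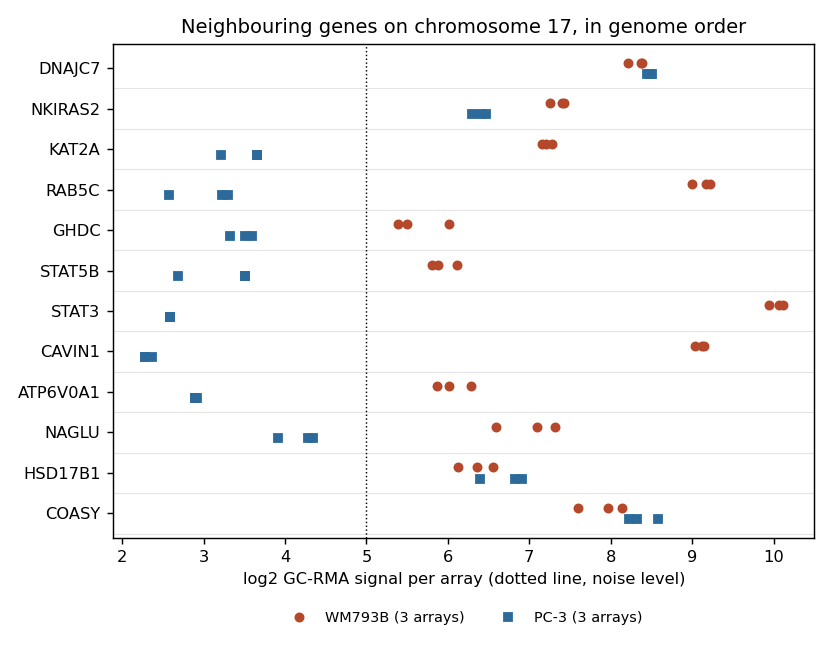
Log2 signal on each array for 12 consecutive tested genes of chromosome 17, listed from top to bottom in genome order, with WM793B as circles above PC-3 as squares and the noise level of 5 as a dotted line. The 8 genes from KAT2A to NAGLU lie left of the line on all PC-3 arrays, and the 2 genes on each side lie right of it in both lines.

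The other runs were shorter. In PC-3 but not WM793B they were ABCG1, TFF3, TFF2, TFF1, TMPRSS3 and SLC37A1 on chromosome 21, KRT80, KRT7, KRT75, KRT8 and KRT18 on chromosome 12, and CDH3, CDH1, TANGO6 and HAS3 on chromosome 16. The 3 trefoil factors of the first, which protect mucous surfaces, averaged 2.55 ± 0.05 (TFF3), 2.46 ± 0.00 (TFF2) and 2.55 ± 0.19 (TFF1) in WM793B, against 5.49 ± 0.70 (TFF3), 9.38 ± 0.36 (TFF2) and 13.02 ± 0.22 (TFF1) in PC-3. In WM793B but not PC-3 they were IRX3, CRNDE, MMP2 and LPCAT2 on chromosome 16 and STK11IP, EPHA4, PAX3 and CT75 on chromosome 2. Several of these runs hold gene families, whereas the 8 genes on chromosome 17 are, except for the STAT pair, unrelated.

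Whole chromosomes also differed. Among genes measured in both lines, the median difference was highest for chromosome 7, at 0.69 ± 0.03 (SD over arrays, 421 genes), and lowest for chromosomes 21 and X, at -0.62 ± 0.08 (87 genes) and -0.62 ± 0.07 (257 genes). Chromosome 14 followed at -0.51 ± 0.06 (283 genes). Of all tested genes of chromosome 7, 37.6% were higher and 7.87% lower in WM793B, where 20.1% and 20.3% of all genes were. On chromosome 21 the shares were 11.5% higher and 37.2% lower, and on chromosome 14 they were 10.1% and 36.8%. MET, on chromosome 7, was lower in WM793B against the trend of its chromosome. DNA copy number was not measured.

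**Figure D5:**
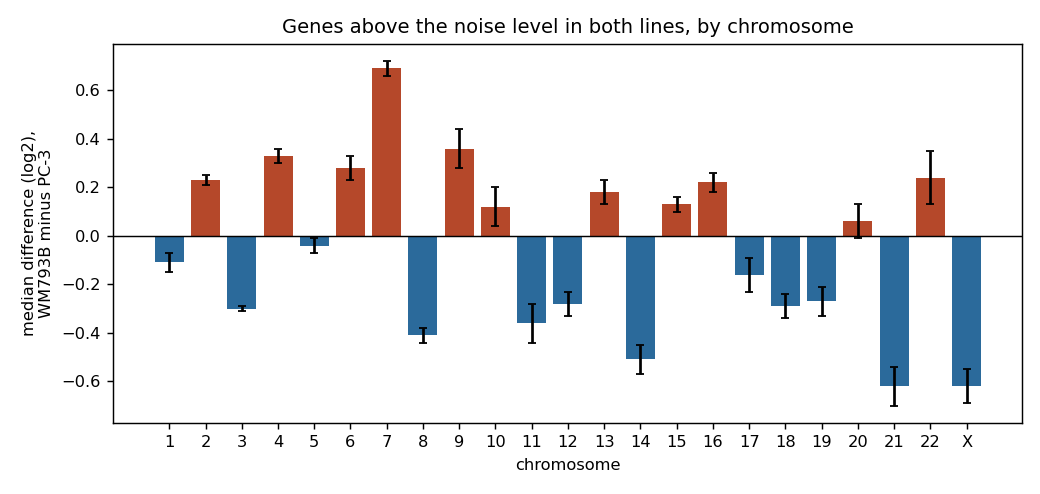
Median log2 difference, WM793B minus PC-3, of the genes above the noise level in both lines for each chromosome; error bars are the SD over arrays of that median. Chromosome 7 has the highest bar, at 0.69, and chromosomes 21, X and 14 the lowest, at -0.62, -0.62 and -0.51.

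Probe sets of a gene mostly moved together. Of 1664 genes with at least 2 called probe sets, 21 had calls in both directions. ESYT2, a tether between the endoplasmic reticulum and the plasma membrane, averaged 10.81 in WM793B and 9.59 in PC-3 at 1 probe set (1.23 ± 0.09) and 2.82 in WM793B and 7.38 in PC-3 at another (-4.55 ± 0.17). PHF19, a Polycomb subunit, was 1.73 ± 0.13 higher at 1 probe set and lower by 2.24 ± 0.09 and 2.43 ± 0.16 at 2 others.

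WM793B replicate 3 departed from its fellows in a small set of genes. Of 351 probe sets with an SD over 0.5 in WM793B, it was the array furthest from the median in 258. ID3 and ID1, inhibitors of differentiation induced by BMP signals, read 8.66, 8.45 and 5.72 (ID3) and 9.28, 9.08 and 7.48 (ID1) in WM793B. In PC-3 the same genes read 5.26, 6.65 and 5.61 (ID3) and 9.88, 10.76 and 10.11 (ID1). ID3 was not called, and its value in WM793B replicate 3 lies within the range of PC-3. EGR1, an immediate early gene, spread widely in PC-3, with 10.52, 10.48 and 10.05 in WM793B and 6.15, 8.09 and 7.16 in PC-3, and was still called (3.22 ± 0.44, SE, adjusted p = 0.000264).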

How the data were processed

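Biotin-labelled RNA of the 27 samples was hybridised to Human Genome U133 Plus 2.0 arrays. The deposited log2 values are those that the authors made with GC-RMA, which corrects background by probe sequence, normalises over all arrays and summarises each of 54675 probe sets; annotation builds are not given in the sources used here. Because all arrays were normalised together, hypoxic arrays shaped the values without being compared.

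Probe sets with a value over 5 on at least 3 of the 6 arrays (19911) were fitted with limma 3.58.1 in R 4.3.3 (line as factor, empirical Bayes, Benjamini-Hochberg). A call required an adjusted p under 0.05 and a 2-fold change. GEO's platform annotation gave 1 symbol to 41097 probe sets, several to 1800 and none to 11777; a gene was read from its brightest tested probe set with 1 symbol. Chromosomes, gene order and promoters came from RefSeq (GRCh38.p14), since the values carry no coordinates. The fit was tested on simulated data.

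The labels name the 3 arrays of a line biological replicates, and no arrays were identical. Whether they came from separate cultures is not stated further. The p-values set each difference against the spread between these arrays, moderated over all probe sets tested. Whether that spread includes differences between cultures is therefore not known. The labels give no scan or batch date. Correlations of deviations between same-numbered arrays of the lines were -0.044, 0.036 and 0.016, so no shared deviation was seen. This cannot show whether same-numbered arrays were handled together, and no pairing was used in the main fit. The comparison and the gene lists were chosen with earlier results of these data known. Named genes are the 10 largest differences each way among genes measured in both lines, the 12 brightest each way among genes silent in the other line, leading or defining members of the lists, genes whose probe sets disagree, genes with the largest replicate SD and runs of neighbouring genes; Y-linked genes and XIST were left out. Probe sets were not compared in level with one another beyond these rankings. Some genes are also described with SK-OV-3 control means. Alternatives covered filters, normalisation, variance model, arrays left out, a replicate block and the choice of probe set.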

Additional observations from a re-analysis of the deposited data

How the results depend on the processing

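The directions of the main comparison held under the 17 alternatives tried. Probe sets higher in WM793B numbered between 3365 (noise level of 6) and 4892 (no filter), and lower ones between 3366 and 4771, against 4058 and 4004. Leaving out each array in turn gave 3992 to 4170 higher and 3928 to 4087 lower probe sets. Without a filter 54675 probe sets were tested in place of 19911. Centring or requantiling the arrays moved the median of all probe sets by less than 0.04. With the replicate number as a block, 4059 higher and 4004 lower probe sets were called, and all 8062 calls were kept. The counts of genes were lowest when probe sets with the suffix _s_at, _x_at or _a_at were left out (1607 higher and 1519 lower), where fewer genes could be read and 23 epithelial genes, in place of 35, were lower. Of 3267 values of 197 named genes under these alternatives, 0 changed sign and 5 lost the call, in MTAP (0.30 to 1.00) and MT1H (0.92 without WM793B replicate 3). Counts per list moved by over 1.5 times in 54 of 1292 cases. Differences of genes near the lowest array value are bounds, signals of different probe sets are not comparable, and 3 samples of 1 line per cancer describe these lines only.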
